A study of Mus musculus with 2 samples.

Results

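The posterior and middle parts of the second heart field of wild-type mouse embryos at embryonic day (E) 9.5 were compared by single-cell RNA sequencing. Cells were assigned to a position by the suffix of their barcode, which the sample's description ties to the dissected position. This gave 418 posterior and 61 middle cells, 479 of the 1500 cells of the series; the E9.5 sample also held 54 anterior cells. Both groups had the same genotype and age, and both carry the label of Osr1-positive cells. Osr1 is a zinc finger transcription factor of splanchnic, kidney and limb mesoderm. How Osr1-positive cells were chosen is not given in the sources used here, nor is the number of embryos. The tissue was minced, dissociated with trypsin and captured in droplets on the 10x Genomics Chromium, and transcripts were counted as unique molecular identifiers (UMIs). Each position was measured in 1 library, so there was no replicate and no test. The intervals given below are 95% intervals that cover counting error only, not the spread between embryos. Those of levels and ratios treat pooled UMIs as independent, so they do not cover the spread between cells either.

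The second heart field is a sheet of splanchnic mesoderm behind the heart tube that adds cells to both of its ends. Its anterior and pharyngeal part feeds the outflow tract and right ventricle and is known for Tbx1, Fgf8 and Isl1, while its posterior part feeds the atria, the atrial septum and the venous inflow and is known for Tbx5, Foxf1 and Osr1. The posterior part lies next to the mesenchyme of the foregut, which forms the lung and stomach walls and uses Wnt2 and Barx1. The pharyngeal and foregut endoderm, an epithelium, lies directly against this mesoderm.

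The posterior library held 13650408 UMIs and the middle library 1601463, with medians of 31257 and 26700 UMIs per cell. Every cell of both libraries had at least 1 Osr1 UMI, and Osr1 stood at 168 counts per 1000000 UMIs (CPM) in posterior and 122 CPM in middle cells. No barcode was shared between the E9.5 libraries. Of 12 second heart field markers, 12 had UMIs in both libraries. Cells with 2 or more UMIs of Epcam, the epithelial adhesion molecule, made up 63 of 418 posterior cells (15.1%, exact Clopper-Pearson interval 11.8% to 18.9%) and 21 of 61 middle cells (34.4%, 22.7% to 47.7%). In posterior 17 of these cells had 2 or 3 Epcam UMIs and 47 further cells had 1, while in middle all 21 had 4 or more and 2 further cells had 1. Every comparison below was therefore made in all cells and again in the 355 posterior and 40 middle cells with 0 or 1 Epcam UMI, called low-Epcam cells here (medians of 31154 and 24241.5 UMIs).

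Differences are given as the log2 fold of posterior over middle after adding 10 CPM to each, which holds genes of few counts near 0, and a gene was called higher or lower when this fold reached 2-fold. In all cells 112 of 16580 genes were higher in posterior cells (0.676%) and 67 were lower (0.404%). In low-Epcam cells 113 of 16112 were higher (0.701%) and 45 lower (0.279%). Of the genes higher in posterior cells 89 were shared between both comparisons, 79.5% of the calls in all cells and 78.8% of those in low-Epcam cells. Of the genes lower in posterior cells 20 were shared, 29.9% of the calls in all cells and 44.4% of those in low-Epcam cells. The genes called lower in all cells alone had a median log2 fold of −0.16 in low-Epcam cells. No gene was called in opposite directions. The counts depend on the CPM added: with 5 CPM 215 genes were higher and 123 lower in all cells and 265 and 83 in low-Epcam cells, and with 50 CPM the same counts were 28, 13, 26 and 7. Without 37 posterior cells rich in sarcomere transcripts, described below, 69 genes were higher in all cells and 58 in low-Epcam cells.

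**Figure D1:**
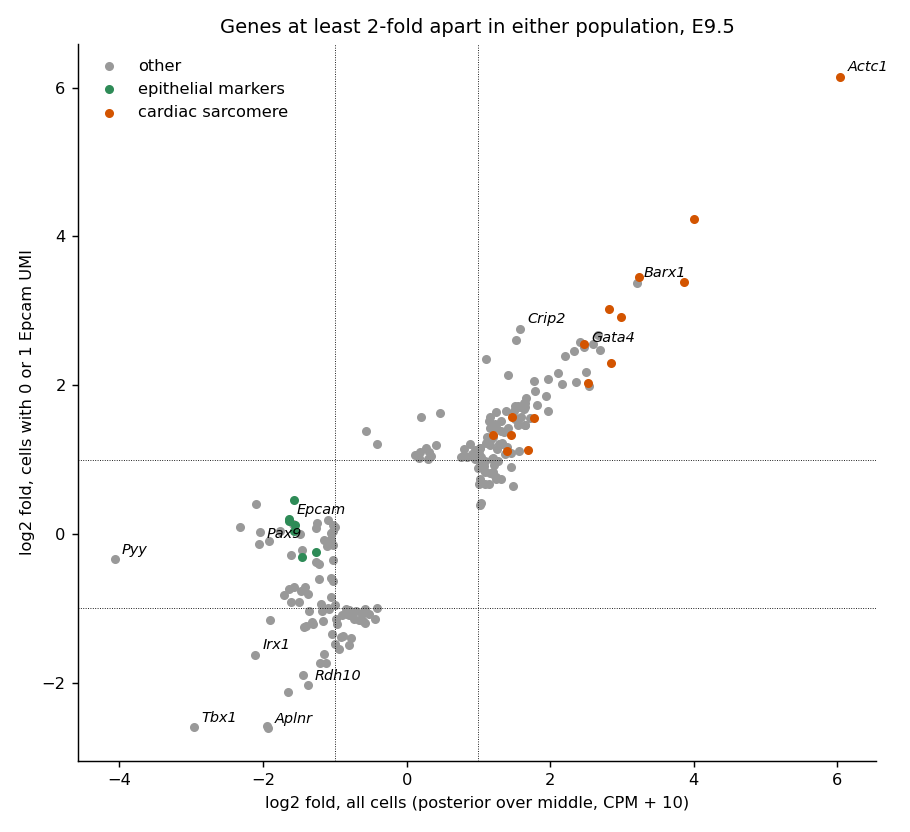
Log2 fold of posterior over middle (10 CPM added) in all cells on the x axis and in cells with 0 or 1 Epcam UMI on the y axis, 1 point per gene, for genes at least 2-fold apart in either; dotted lines mark 2-fold, and colours mark sarcomere genes and epithelial markers. Actc1, Barx1 and Tbx1 lie far from 0 on both axes, whereas Pyy and the epithelial markers are far below 0 on the x axis and near 0 on the y axis.

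For 4 of the genes that lead the comparison, the sequence around the annotated start is shown so that the genes at the far ends can be read side by side: Actc1 and Tnnc1 for the contractile group, Barx1 for the mesenchymal group and Tbx1 for the genes lower in posterior cells. Each runs 5′ to 3′ on the gene's strand from 250 bases before to 50 bases after the start, taken from RefSeq on GRCm38.p6. Actc1 lies at chr2:114052826-114053125 (minus strand), Tnnc1 at chr14:31208062-31208361 (plus), Barx1 at chr13:48662786-48663085 (plus) and Tbx1 at chr16:18590622-18590921 (minus). Capitals mark matches on either strand to any of 4 motifs. These are AGATAA, which factors of the Gata family bind, then AGGTGT, the core that T-box factors bind, then TATAA, the core promoter box, and the CArG box, which serum response factor binds. No base was shared between 2 different motifs.
Actc1: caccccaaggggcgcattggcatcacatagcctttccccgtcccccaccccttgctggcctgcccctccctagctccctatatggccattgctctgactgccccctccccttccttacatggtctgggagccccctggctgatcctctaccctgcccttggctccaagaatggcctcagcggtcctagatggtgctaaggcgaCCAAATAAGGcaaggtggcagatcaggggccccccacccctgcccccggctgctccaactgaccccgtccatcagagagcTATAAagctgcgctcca
Tnnc1: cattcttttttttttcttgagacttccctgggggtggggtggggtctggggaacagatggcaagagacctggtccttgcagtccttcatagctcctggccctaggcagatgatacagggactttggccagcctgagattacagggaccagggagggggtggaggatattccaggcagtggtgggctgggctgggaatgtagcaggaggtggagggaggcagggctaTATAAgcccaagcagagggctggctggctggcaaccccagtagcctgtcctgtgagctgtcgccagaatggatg
Barx1: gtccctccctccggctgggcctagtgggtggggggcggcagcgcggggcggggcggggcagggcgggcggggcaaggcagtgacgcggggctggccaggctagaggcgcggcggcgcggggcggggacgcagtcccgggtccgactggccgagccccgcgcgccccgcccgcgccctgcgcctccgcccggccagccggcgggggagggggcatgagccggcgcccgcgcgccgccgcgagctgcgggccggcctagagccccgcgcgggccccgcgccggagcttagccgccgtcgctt
Tbx1: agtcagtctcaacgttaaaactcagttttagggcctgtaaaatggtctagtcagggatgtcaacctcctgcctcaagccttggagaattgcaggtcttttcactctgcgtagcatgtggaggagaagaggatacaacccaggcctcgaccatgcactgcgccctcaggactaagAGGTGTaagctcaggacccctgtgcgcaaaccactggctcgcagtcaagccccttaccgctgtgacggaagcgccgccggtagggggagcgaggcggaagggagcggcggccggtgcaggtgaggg
The Actc1 window held a CArG box match beginning 47 bases before the start and a core promoter box beginning at base 34 after it, the Tnnc1 window held a core promoter box 24 bases before the start, and the Tbx1 window held a T-box core 76 bases before it. The Barx1 window held none of the 4 motifs. The GENCODE span of Actc1 given below ends at base 114053548, outside its window, so the Actc1 positions hold for the RefSeq start alone. Over 32851 mouse promoter windows of this length, 1.63% held a CArG box match, 24.9% a core promoter box, 13.7% a T-box core and 11.2% the motif of Gata factors, so a single match is a description of the letters and not a site.

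Genes of the contractile apparatus were higher in posterior cells, and of the lists measured the cardiac sarcomere list held the most calls. Of its 20 genes, 15 were at least 2-fold higher in posterior low-Epcam cells and 0 were lower, with a median log2 fold of 1.56 against 0.02 over all genes tested. In all cells the same number, 15, were higher (median 1.73). Actc1 (chromosome 2, 114047282 to 114053548, mm10), cardiac alpha-actin of the thin filament, stood at 863 CPM in posterior and 2.29 CPM in middle low-Epcam cells, where it had 2 counts (377-fold, 104 to 3112). Tnnc1, the calcium-binding troponin C of heart and slow muscle, had 2036 counts in posterior and 0 in middle cells, and was at least 51.6-fold higher against the limit of 3 counts that a count of 0 allows. Csrp3, a LIM protein of the Z-disc, and Myh6, the atrial myosin heavy chain, were likewise at 0 in middle low-Epcam cells and at 99.5 and 71.3 CPM in posterior ones, at least 29.0-fold and 20.7-fold higher. These 4 genes had 2, 0, 0 and 0 counts over all 61 middle cells.

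Other contractile genes were measured at both positions. Myl7, the atrial regulatory light chain and the most abundant member of the list in the posterior library, stood at 1127 CPM in posterior and 221 CPM in middle low-Epcam cells (5.10-fold, 4.42 to 5.91), with a UMI in 94.9% and 75% of cells. Myl4, the embryonic and atrial essential light chain, stood at 693 and 57.3 CPM (12.1-fold, 9.17 to 16.3), and Ttn, the giant elastic protein titin, at 117 and 6.87 CPM. Tnnt2, cardiac troponin T, was at 302 and 66.4 CPM in the same groups. Members that were not called included Myl2, the ventricular light chain, at 2.00 and 1.15 CPM, and Actn2, the Z-disc actinin, at 5.14 and 0 CPM. Sh3bgr, a small gene of embryonic heart and skeletal muscle, was at 98.8 CPM in posterior and 6.87 CPM in middle cells. Small heat shock chaperones followed the same direction: Cryab, abundant in muscle, was at 68.2 and 2.29 CPM, and Hspb1 at 77.3 and 4.58 CPM in low-Epcam cells. Their log2 folds without the sarcomere-rich cells described next were 0.84 for Cryab and −0.04 for Hspb1, and Sh3bgr then had 0.93 over all cells.

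Most of this contractile transcript came from few posterior cells. The 10% of posterior low-Epcam cells with the most Actc1 held 95.5% of its UMIs, and the same share was 94.5% for Tnnc1, 89.8% for Myl4 and 84.8% for Myl7. In 37 of 418 posterior cells (8.85%, 6.31% to 11.99%) the sarcomere list made up at least 0.5% of all UMIs, and 8 posterior cells lay between 0.4% and 0.6%. All 37 were low-Epcam cells, 10.4% of the 355. In the middle library 0 of 61 cells passed this level, which allows a share of up to 4.92% (3 of 61 cells), and the highest middle cell was at 0.367% while the highest posterior cell was at 7.90%. Since the levels are sums over cells, fewer cells of a type and less RNA per cell cannot be told apart in them.

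The contractile genes were also measured without the 37 sarcomere-rich cells. These were chosen by the same genes and all lay in the posterior library, so lower counts follow from the choice and the values are a description. Of the 20 sarcomere genes 2 were then higher in posterior low-Epcam cells, with a median log2 fold of −0.00, and 3 were higher in all cells. Actc1 then stood at 47.6 CPM in posterior low-Epcam cells, against 2.29 CPM in middle cells (log2 fold 2.23), and Tnnc1 kept a log2 fold of 1.19. Myl4 had a log2 fold of 0.63, Myl7 of −0.07 and Ttn of −0.15. A low level of Actc1 was also found outside the low-Epcam cells: 55.6% of the 63 posterior cells with 2 or more Epcam UMIs had an Actc1 UMI (median depth 31879 UMIs), against 63.7% of posterior low-Epcam cells (median 31154). The same pair was 69.8% and 75.5% for Myl4, and in the middle library the pair was 0% and 5% for Actc1 (median depths of 32161 and 24241.5 UMIs). The part of free RNA in these shares was not tested.

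**Figure D2:**
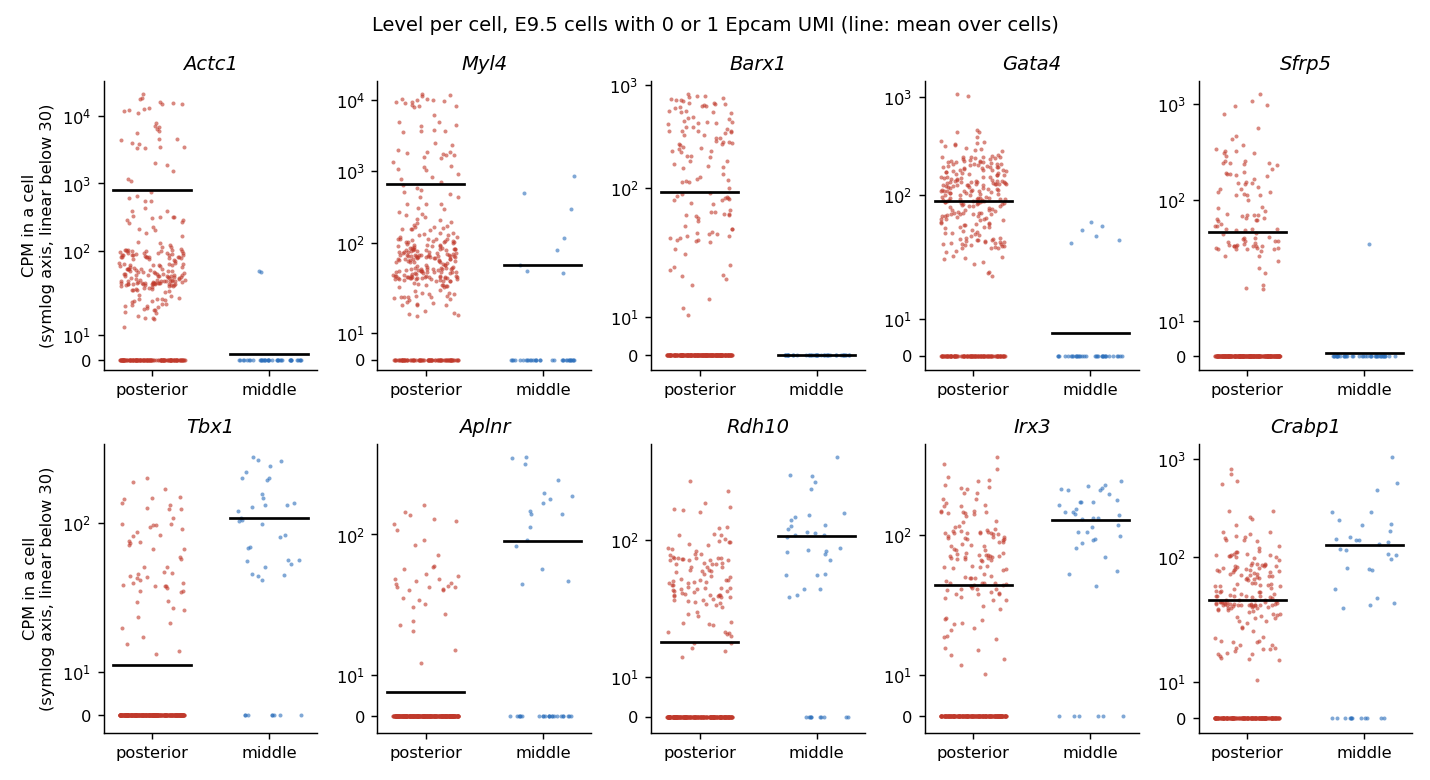
Level in CPM of 10 genes in single low-Epcam cells, with the posterior library left of the middle library, 1 point per cell and a line at the mean over cells, on an axis that is linear below 30 CPM and logarithmic above. High Actc1 is found in a small tail of posterior cells, a Gata4 UMI in 66.8% of posterior and 15% of middle cells, and a Tbx1 UMI in 16.6% of posterior and 80% of middle cells.

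Smooth muscle genes were also higher in posterior cells. Of the 11 genes of their list 4 were higher in posterior low-Epcam cells (Acta2, Tagln, Cnn1 and Myl9) and 0 lower, with a median of 0.50. Acta2, smooth muscle alpha-actin, which early cardiomyocytes also express, stood at 540.1 CPM in posterior and 128 CPM in middle low-Epcam cells (4.21-fold, 3.49 to 5.12). Without the sarcomere-rich cells 0 of the 4 remained past 2-fold in low-Epcam cells. Acta2 was then lower in posterior cells, at 71.1 CPM against 128 CPM in middle cells (log2 fold −0.77). Over all cells Tagln remained past 2-fold without them (log2 fold 1.13). Crip1 and Crip2, LIM proteins of cardiovascular tissue, were higher in posterior low-Epcam cells, with 128 and 12.6 CPM for Crip1 and 182 and 18.3 CPM for Crip2. Without the sarcomere-rich cells neither was past 2-fold, with log2 folds of 0.53 for Crip1 and 0.94 for Crip2. Both also had a UMI in most cells with 2 or more Epcam UMIs, where Crip2 was found in 76.2% of posterior and 95.2% of middle cells.

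A set of transcription factors and Wnt regulators was higher in posterior cells whether or not the sarcomere-rich cells were counted. Barx1, a homeobox gene that marks stomach mesenchyme, had 1077 counts in posterior low-Epcam cells (93.9 CPM) and 0 in middle ones, and was at least 27.3-fold higher. Over all middle cells it had 1 count, in 1 of 61 cells. A Barx1 UMI was found in 123 of 355 posterior low-Epcam cells (34.6%, 29.7% to 39.9%) and in 0 of 40 middle ones, which allows a share of up to 7.50% (3 of 40 cells), and in 29.3% and 0% after each cell was thinned to 14500 UMIs. The thinned comparison left out 31 posterior and 9 middle cells that were shallower. The Barx1 share was 17.5% in posterior cells with 2 or more Epcam UMIs.

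Gata4 (chromosome 14, 63198922 to 63271692), a zinc finger factor needed for the heart tube and the atrial septum, stood at 85.9 CPM in posterior and 6.87 CPM in middle low-Epcam cells (12.5-fold, 5.72 to 34.2). A Gata4 UMI was found in 66.8% of posterior (61.6% to 71.6%) and 15% of middle low-Epcam cells (5.71% to 29.8%), and in 53.1% and 9.68% after thinning. The posterior share of cells with an Actc1 UMI, given above, lay inside the posterior interval. The UMIs of Gata4 were less concentrated, however: the top 10% of posterior low-Epcam cells held 35.9% of them, against 95.5% for Actc1. Gata4 was also found in 61.9% of posterior and 9.52% of middle cells with 2 or more Epcam UMIs. Foregut endoderm is known to express Gata4, so these cells are no clean measure of background for it. Sfrp5, a secreted Wnt inhibitor of the venous pole, stood at 55.4 CPM in posterior and 1.15 CPM in middle low-Epcam cells, where it had 1 count (48.4-fold, 8.66 to 1915). Without the sarcomere-rich cells the log2 folds were 3.52 for Barx1, 2.45 for Gata4 and 2.29 for Sfrp5.

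The list for the venous pole and posterior field had 22 genes, of which 6 were higher in posterior low-Epcam cells (Tbx5, Gata4, Nr2f2, Tbx20 and Sfrp5 among them) and 0 were lower, with a median log2 fold of 0.39. In all cells 9 were higher and 1 was lower (median 0.89). Nr2f2, the nuclear receptor of atrial and venous identity, stood at 219.6 CPM in posterior and 63.0 CPM in middle low-Epcam cells. Tbx20, a T-box gene of the heart, had 214 counts and 0. Tbx5, the T-box gene of the atria and inflow, was at 57.7 and 21.8 CPM (2.65-fold, 1.68 to 4.43), and its log2 fold of 1.09 was 0.89 without the sarcomere-rich cells. Several of the best known members were within 2-fold in low-Epcam cells: Foxf1, a Hedgehog-responsive forkhead gene, stood at 236 and 196 CPM, Aldh1a2, the main enzyme of retinoic acid synthesis in the embryo, at 159 and 129 CPM, and Tbx18, of the sinus venosus, at 28.4 and 26.3 CPM. Wnt2, a ligand of heart and lung progenitors, was called in all cells at 156 CPM in posterior and 56.8 CPM in middle, but stood at 178 and 103 CPM in low-Epcam cells (1.73-fold, 1.40 to 2.16).

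**Figure D3:**
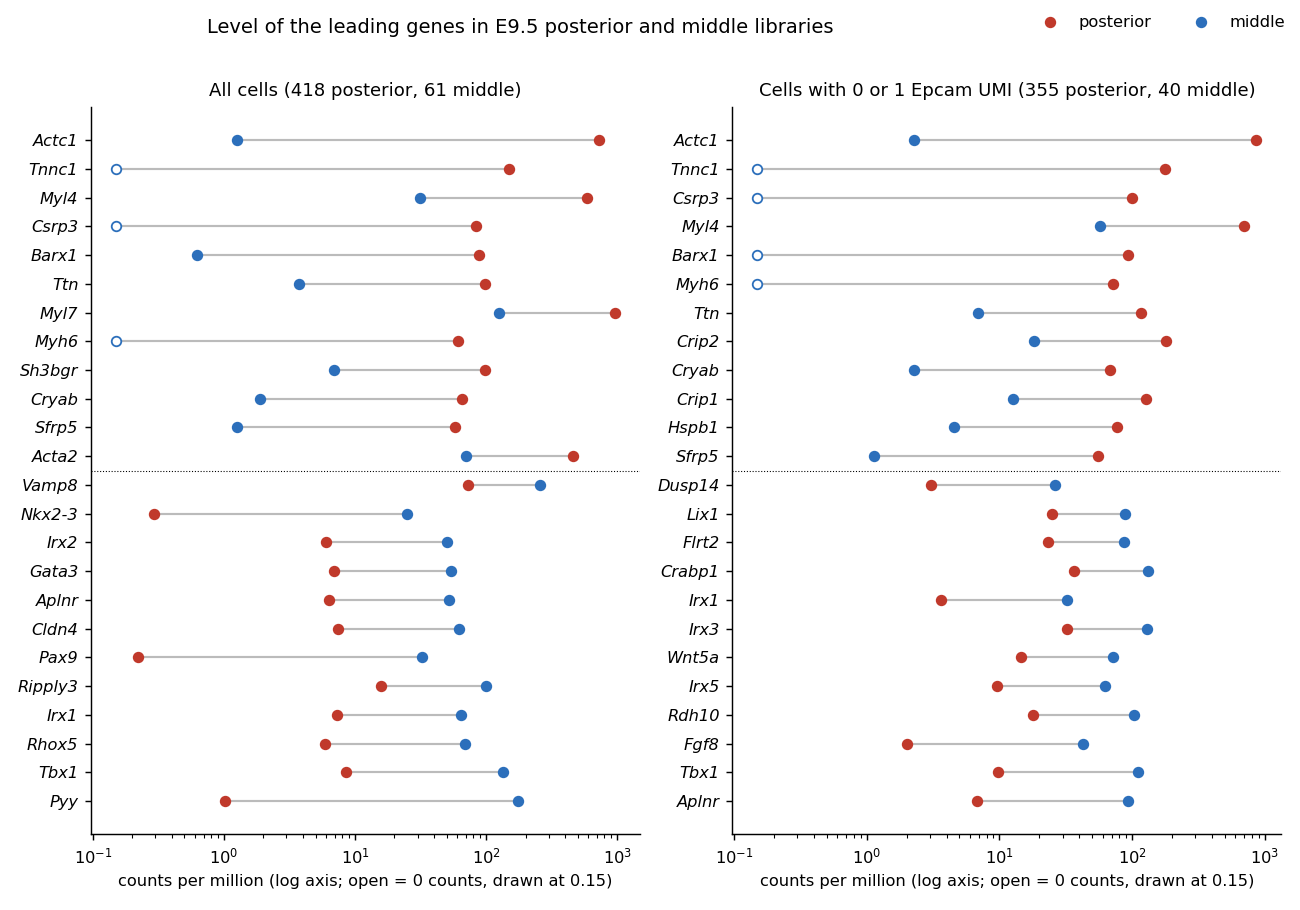
Level in CPM of the named genes in the posterior and middle libraries, for all cells and for cells with 0 or 1 Epcam UMI, on a log axis, with a grey line joining the 2 libraries of a gene. Open symbols are genes with 0 counts, drawn at the left edge. Tnnc1, Csrp3 and Myh6 have open middle symbols in both panels, and Tbx1 and Aplnr lie further right in middle than in posterior.

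In the other direction, Tbx1 and a group of homeobox genes were lower in posterior cells. Tbx1, the T-box gene of pharyngeal mesoderm and endoderm, stood at 9.76 CPM in posterior and 110.0 CPM in middle low-Epcam cells (11.3-fold lower, 8.49 to 14.9), and at 8.57 and 135 CPM in all cells. A Tbx1 UMI was found in 16.6% of posterior (12.9% to 20.9%) and 80% of middle low-Epcam cells (64.4% to 90.9%), and in 7.94% and 66.7% of cells with 2 or more Epcam UMIs. The Iroquois homeobox genes, which pattern many embryonic fields, were lower as well: Irx3 stood at 32.3 and 131 CPM in low-Epcam cells, Irx5 at 9.59 and 63.0 CPM, and Irx1 at 3.66 and 32.1 CPM. Irx1 and Irx2 were also epithelial, since 54.0% of posterior and 85.7% of middle cells with 2 or more Epcam UMIs had an Irx1 UMI and 49.2% and 71.4% an Irx2 UMI. In all cells Irx2 stood at 6.01 CPM in posterior and 49.95 CPM in middle.

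Several signalling and surface proteins were lower in posterior low-Epcam cells too. Aplnr (chromosome 2, 85136225 to 85139923), the apelin receptor, which early mesoderm and vessels express, stood at 6.80 CPM in posterior and 92.8 CPM in middle (13.6-fold lower, 9.87 to 18.9), with a UMI in 10.4% and 42.5% of cells. Fgf8, the growth factor of the anterior field, had 23 counts in posterior and 37 in middle (2.00 and 42.4 CPM). Wnt5a, a ligand of non-canonical Wnt signalling used in outflow tract growth, stood at 14.6 and 72.2 CPM. Flrt2, a membrane protein that binds FGF receptors and Unc5, stood at 23.3 and 87.0 CPM, Lix1 at 24.9 and 88.2 CPM, and Dusp14, a dual-specificity phosphatase, at 3.05 and 26.3 CPM. The anterior library at E9.5 held 88.7 CPM of Tbx1, 67.9 CPM of Irx3 and 15.4 CPM of Aplnr over all its cells, of which 63.0% had 2 or more Epcam UMIs.

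Of the 27 genes of the anterior and pharyngeal list, 8 were lower in posterior low-Epcam cells (Tbx1, Fgf8, Six2, Irx1, Irx2, Irx3, Irx5 and Crabp1) and 2 were higher (Mef2c and Msc), with a median log2 fold of −0.52. In all cells 11 were lower and 2 higher (median −0.56). Isl1, the LIM homeobox gene that defines the second heart field, did not follow the list: it stood at 82.2 CPM in posterior and 49.3 CPM in middle low-Epcam cells, with a UMI in 52.4% and 52.5% of cells. Mef2c, a muscle transcription factor, was at 62.1 and 24.1 CPM, and its log2 fold of 1.08 was 0.17 without the sarcomere-rich cells. Dlk1, the most abundant member, was at 391 and 484 CPM.

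Several of the lowest genes in all cells were not called in low-Epcam cells. Pyy, the gut hormone peptide YY, was at 1.03 CPM in posterior and 175 CPM in middle cells (170.5-fold lower, 99.9 to 316), and in low-Epcam cells it had 7 and 3 counts. Of the cells with 2 or more Epcam UMIs, 17 of 63 in posterior and 0 of 21 in middle had only 2 or 3. Pyy was found in 9.52% of posterior and 81.0% of middle cells with 2 or more Epcam UMIs, at 3.21 and 380.3 CPM. Its level thus also differed among those cells. Pax9, a pharyngeal pouch gene, was at 0.459 and 70.0 CPM in those cells, Ripply3, a co-repressor that binds T-box proteins, at 81.7 and 219.7 CPM, and Nkx2-3, a homeobox gene of pharyngeal endoderm and gut mesenchyme, at 0.459 and 54.9 CPM. Rhox5, a reproductive homeobox gene, was at 5.86 CPM over all posterior and 69.3 CPM over all middle cells, Gata3 at 6.96 and 54.3 CPM, Cldn4, a tight junction claudin, at 7.40 and 61.8 CPM, and Vamp8, a vesicle fusion protein of secretory cells, at 72.2 and 259 CPM. In low-Epcam cells Vamp8 stood at 60.7 CPM in posterior and 115 CPM in middle, a log2 fold of −0.82. In all cells 7 of 16 epithelium markers were lower in posterior and 0 higher (median −0.93), and their summed level was 822 CPM in posterior and 1330.0 CPM in middle cells. In low-Epcam cells 0 of 16 were called (median 0.09), with sums of 359 and 214 CPM and 9 of 16 at 0 in middle cells. Of these 16, 13 were under 10 CPM in both groups, where the 10 CPM added keeps any gene under 2-fold. Epcam, a member, also set the population, so the absence of calls says little about epithelial transcripts there.

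Among the signalling lists the FGF pathway held the most calls in low-Epcam cells, while in all cells FGF (0 higher, 6 lower) and Wnt (5 higher, 1 lower) held the same number. Of its 20 genes, 4 were lower in posterior low-Epcam cells (Fgf8, Spry1, Etv4 and Il17rd, a ligand, 2 feedback inhibitors and a transcription factor that FGF induces) and 1 was higher (Fgfr2, a receptor), with a median log2 fold of −0.47. Fgf10, the other ligand of this field, was at 6.54 CPM in posterior and 13.7 CPM in middle. Of 18 retinoic acid genes, 2 were lower and 0 higher (median −0.06). Rdh10, which makes retinaldehyde in the first step of retinoic acid synthesis, stood at 17.9 and 104 CPM (5.83-fold lower, 4.51 to 7.50), and Crabp1, a cytoplasmic retinoic acid binding protein, at 36.5 and 133 CPM (3.64-fold lower, 2.94 to 4.48). Of 28 Wnt pathway genes, Rspo3, a Wnt agonist, and Sfrp5 were higher and Wnt5a lower (median 0.20). None of 19 Hedgehog pathway genes was called (median 0.07): Ptch1, the receptor and a target, stood at 115 CPM in posterior and 107 CPM in middle, and Gli1, a target and effector, at 18.8 and 13.7 CPM. Of 22 BMP pathway genes, Msx1, a target, was higher and 0 were lower (median 0.15). None of 15 Notch pathway genes was called (median 0.01). Of the Notch genes 10, and of the Hedgehog genes 8, were under 10 CPM in both groups and so could not reach 2-fold. Over all genes 0.701% were higher and 0.279% lower in low-Epcam cells, so the absence of calls in lists of this size is near that share.

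Hox genes of paralogue groups 4 and 5 were among those higher in posterior cells. In low-Epcam cells 3 of 21 measured Hox genes were higher, Hoxa4, Hoxa5 and Hoxc4, and 0 were lower (median 0.05). Hoxa5, which patterns lung and foregut mesenchyme, stood at 61.3 CPM in posterior and 12.6 CPM in middle, and Hoxc4 at 31.3 and 3.44 CPM. Hoxb1, a retinoic acid target that marks the posterior second heart field, did not differ in the same way: it was at 70.6 CPM in posterior and 72.2 CPM in middle, a log2 fold of −0.03 (−0.36 to 0.31). Of 21 genes of lung, foregut and stomach mesenchyme, 4 were higher (Barx1, Hoxa5, Tbx5 and Nkx6-1) and 2 lower (Meox1 and Six2), with a median of 0.19. Of 18 core cardiac regulators 4 were higher (Mef2c, Gata4, Tbx5 and Tbx20) and 0 lower (median 0.55). Without the sarcomere-rich cells 2 of the 18 were higher, Gata4 and Tbx20, and 0 lower (median 0.33). Nkx2-5, the cardiac homeobox gene, was at 94.0 CPM in posterior and 51.5 CPM in middle, with a UMI in 27.9% and 35% of low-Epcam cells. Over all cells without the sarcomere-rich cells, Nkx2-5 stood at 26.7 CPM in posterior and 38.1 CPM in middle (log2 fold −0.39).

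Matrix and guidance genes were called in both directions. Of 32 matrix genes, 3 were higher in posterior low-Epcam cells (Lum, Postn and Sparc) and 2 lower (Col26a1 and Hapln1), with a median of −0.07. Sparc, a secreted collagen-binding protein, stood at 134 CPM in posterior and 56.1 CPM in middle, and Hapln1, a link protein of hyaluronan matrix, at 27.3 and 72.2 CPM. Of 23 guidance genes, Epha4, an ephrin receptor, was higher and Cxcl12, a chemokine that guides migrating cells, was lower at 55.8 CPM in posterior and 141 CPM in middle (median −0.11).

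**Figure D4:**
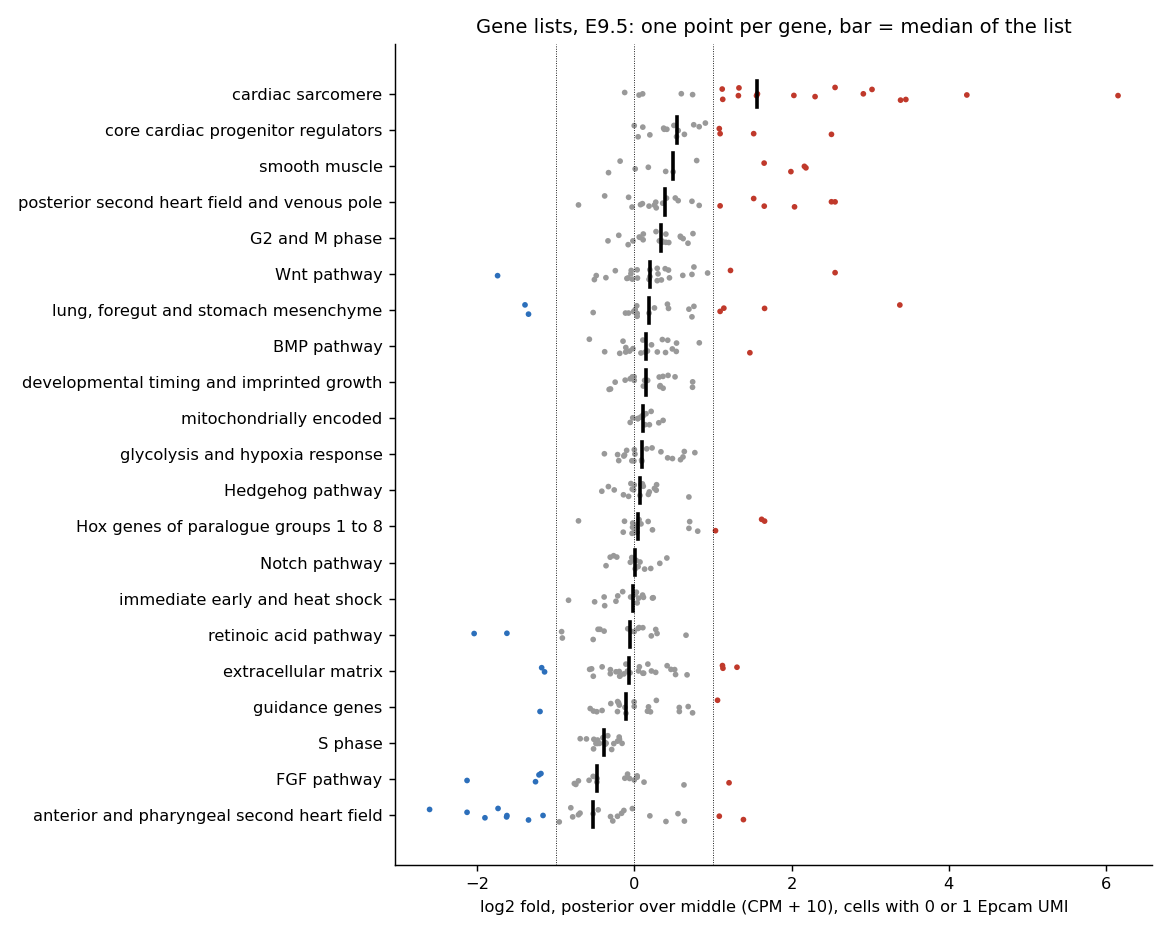
Log2 fold of posterior over middle in low-Epcam cells for every measured gene of the lists, 1 row per list, with the list median as a bar; the axis is on the scale with 10 CPM added. Red points are at least 2-fold higher in posterior, blue points at least 2-fold lower and grey points neither. The sarcomere row reaches furthest right with 15 red points, and the anterior and pharyngeal row has 8 blue points.

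Cell cycle lists held no call in either population. In low-Epcam cells all 20 S phase genes were below 0 (median −0.39, 10 CPM added), with a summed level of 2689 CPM in posterior and 3613 CPM in middle. Of 20 G2 and M phase genes 16 were above 0 (median 0.34), with sums of 4608 and 4151 CPM. Over all 16112 genes of low-Epcam cells, 9879 were above 0 and 6233 below. In all cells 18 of the 20 S phase genes were below 0, against 6627 of all 16580 genes, and the medians were −0.15 and 0.03. The developmental timing list (median 0.15 over 20 genes), glycolysis and hypoxia (0.09 over 21), mitochondrially encoded genes (0.11 over 13) and the stress response list of heat shock and immediate early genes (−0.02 over 16) had 0 calls in low-Epcam cells. Mitochondrial transcripts were 2.04% of posterior and 2.13% of middle UMIs over all cells.

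Markers of other cell types were measured in the same libraries, and their part in the differences above was not tested. The values in low-Epcam cells and without the sarcomere-rich cells are descriptions, since both sets were chosen by such markers. Of 10 cardiomyocyte markers 7 were higher in posterior low-Epcam cells, with a summed level of 2563 CPM in posterior and 357 CPM in middle and 4 of 10 at 0 in middle. Endothelial markers summed to 136 and 48.1 CPM (0 of 10 called, 5 at 0 in middle), and erythroid markers to 73.7 and 35.5 CPM (0 of 9 called). Neural crest markers summed to 16.1 and 32.1 CPM, with 4 of 8 at 0 in posterior and 7 in middle, and neural markers to 15.3 and 16.04 CPM (0 of 6 called). Mesothelial markers summed to 125 and 126 CPM (0 of 8 called), hepatoblast markers to 14.0 and 5.73 CPM (0 of 9) and nephric markers to 23.2 and 14.9 CPM (0 of 6). A gene under 10 CPM in both groups cannot reach 2-fold with 10 CPM added. That held for 9 of 9 hepatoblast, 5 of 6 nephric, 5 of 6 neural, 7 of 10 endothelial, 6 of 9 erythroid and 4 of 8 mesothelial markers. For these the absence of calls is no measure of a difference. All 6 leukocyte markers were at 0 in middle and summed to 0.784 CPM in posterior. Of 7 somite and myotome markers Meox1 was lower in posterior (sums of 22.3 and 58.4 CPM), and of 6 branchiomeric muscle markers 2 were higher, Msc among them (sums of 162 and 98.5 CPM).

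Within posterior low-Epcam cells, pairs of named genes were found together to different extents. The following pairs were chosen after their values were seen, and a cell counted as positive with 2 or more UMIs. Barx1 was positive in 87 of 355 cells, and Gata4 was positive in 73 of those (83.9%) and in 40.7% of the rest (median depths of 31770 and 30977.5 UMIs). Wnt2, which was not called in low-Epcam cells, was positive in 182 cells, and Barx1 was positive in 15 of those (8.24%) and in 41.6% of the rest, although the Wnt2-positive cells were deeper (33269.5 against 29335 UMIs). Sfrp5 was positive in 62 cells, of which 44 were positive for Actc1 (71.0%, against 28.3% of the rest) and 4 for Barx1 (6.45%, against 28.3% of the rest). The Sfrp5-positive cells were deeper, with a median of 35791 UMIs against 30519 in the rest. The 24 posterior cells positive for Tbx1 included 2 positive for Gata4 (8.33%, against 54.4% of the rest). In the middle library 21 of 40 low-Epcam cells were positive for Tbx1, of which 16 were positive for Irx3 (76.2%, against 47.4% of the rest) and 10 for Aplnr (47.6%, against 10.53% of the rest), with median depths of 26700 UMIs in Tbx1-positive cells and 20735 in the rest. None of the 40 was positive for Gata4.

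Both positions had also been sampled a day later, in 560 posterior and 331 middle cells at E10.5, also in 1 library each. That sample differed in depth, with medians of 5388.5 and 5263 UMIs per cell, and in sex: Xist, the X inactivation transcript, had a UMI in 903 of all 967 E10.5 cells and in 1 of all 533 E9.5 cells. At E10.5 162 of 15381 genes were higher in posterior low-Epcam cells (1.05%) and 61 lower (0.397%), and in all cells 177 (1.12%) and 58 (0.368%). Of the 113 genes higher in posterior low-Epcam cells at E9.5, 93 had a fold above 0 at E10.5 (82.3%, against 63.2% of all genes), and 25 were past 2-fold. Of the 45 lower genes 38 had a fold below 0 (84.4%, against 36.8% of all genes), and 10 were past 2-fold. In all cells 92 of the 112 higher genes kept their sign (82.1%, against 64.1% of all genes), and 38 of the 67 lower genes kept their sign (56.7%, against 35.9% of all genes).

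Barx1 and Gata4 were higher in posterior low-Epcam cells at both stages. Barx1 stood at 784 CPM in posterior and 22.2 CPM in middle cells at E10.5, and Gata4 at 28.4 and 1.11 CPM. Hoxa5 was at 174 and 40.0 CPM. Tbx1 was lower in posterior again, at 2.03 CPM against 43.3 CPM in middle, as were Crabp1 at 39.9 and 339 CPM, Wnt5a at 13.9 and 82.8 CPM and Irx1 at 3.38 and 62.8 CPM. Actc1 stood at 76.4 and 51.7 CPM at E10.5 (log2 fold 0.49, against 6.15 at E9.5), and Aplnr had 1.35 and 0 CPM. Flrt2 had a fold of the other sign, at 24.7 CPM in posterior and 10.6 CPM in middle. List medians kept their sign for the sarcomere list (0.79 at E10.5), the posterior list (0.31) and the anterior and pharyngeal list (−0.24), and had the other sign for the FGF pathway (0.39), smooth muscle (−0.29), S phase (0.40), G2 and M phase (−0.28), guidance genes (0.42), matrix (0.18), the Notch pathway (−0.22) and the Wnt pathway (−0.02). Among the marker lists the sign also turned for erythroid (−1.43), mesothelial (−0.04) and neural (−0.22) markers.

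**Figure D5:**
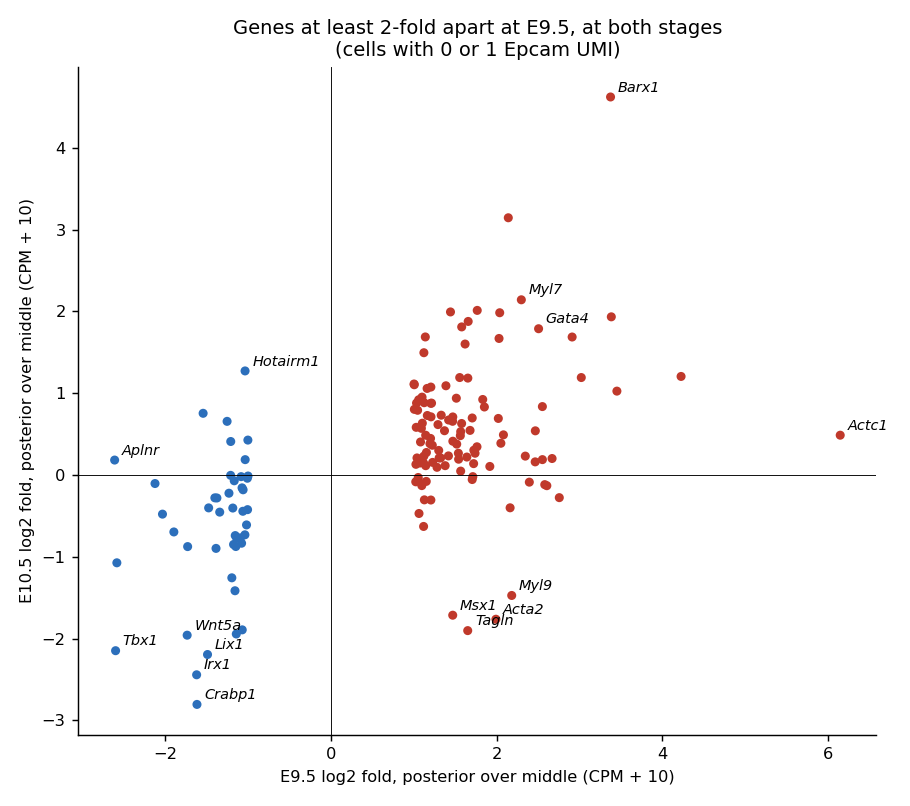
Log2 fold of posterior over middle in low-Epcam cells at E9.5 on the x axis and at E10.5 on the y axis, for the genes called at E9.5 (red higher and blue lower in posterior). Barx1 and Gata4 lie above 0 on both axes, Tbx1 and Crabp1 below 0 on both, and Acta2, Tagln, Myl9 and Msx1 are above 0 at E9.5 and below 0 at E10.5.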

How the data were processed

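UMI counts per gene and cell were used as the authors deposited them, 1 matrix per stage with 17492 genes at E9.5. Reads were aligned to mm10 per the labels' protocols; Cell Ranger 3.0 and Seurat are named in the submitters' processing notes, and the annotation version and cell filters are not given in the sources used here. Counts were summed per position and divided by the total to give CPM, with Python 3.11.15, numpy 2.4.6, pandas 2.3.3 and scipy 1.17.1. No cell was left out of the main values; Scrublet in scanpy 1.11.5 marked 4 of 418 posterior and 1 of 61 middle cells as doublets. Intervals are exact (Poisson for levels, Clopper-Pearson for shares, conditional binomial for ratios). The computation was tested on simulated counts pooled per library. These held no spread between cells, so the intervals were not tested against such spread. Genes named are the 12 highest and 12 lowest folds in each population with a UMI in at least 10% of cells of the higher library, plus list examples, and list members past 2-fold named after their values were seen. Members and lists were chosen with earlier results of these data known. Alternatives changed the scaling (TMM from edgeR 4.0.16 in R 4.3.3, or means of per-cell CPM), the CPM added, the cells kept, the depth and the Epcam limit. Coordinates are from GENCODE vM21, which matched 98.9% of genes. Some members of the lists are not reported here by name.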

Additional observations from a re-analysis of the deposited data

Results flagged for a closer look

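Acta2, Tagln, Myl9 and Msx1 were past 2-fold at both stages with opposite directions: at E9.5 they were higher in posterior cells, and at E10.5 lower. The difference between the stages was not tested, because each position was measured in 1 library per stage. In all cells the log2 folds of posterior over middle at E10.5 were −1.75 for Acta2, −1.82 for Tagln, −1.42 for Myl9 and −1.63 for Msx1. In low-Epcam cells they were −1.76, −1.90, −1.47 and −1.71 for the same genes. At E9.5 the folds of Acta2, Tagln and Myl9 in low-Epcam cells were 1.99, 1.65 and 2.18. None of these smooth muscle genes remained past 2-fold in low-Epcam cells without the 37 sarcomere-rich posterior cells. Over all cells without those 37, Tagln remained past 2-fold (log2 fold 1.13). Cpn1, a carboxypeptidase subunit, was lower in posterior cells at E9.5 over all cells (8.64 CPM in posterior and 34.3 CPM in middle) and higher at E10.5 (log2 fold 1.16, with 58 posterior and 4 middle counts). Hotairm1, a non-coding RNA of the HoxA cluster, was lower in posterior low-Epcam cells at E9.5 (49.0 CPM in posterior and 111 CPM in middle) and higher at E10.5 (log2 fold 1.27, with 161 posterior and 30 middle counts).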

How the results depend on the processing

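No paired analysis was possible because each position was measured in 1 library at E9.5; for the same reason no library could be left out. The counts of genes past 2-fold depended on the CPM added before the log. With 5 CPM added, 215 genes were higher and 123 lower in posterior cells over all cells, and 265 higher and 83 lower in low-Epcam cells. With 50 CPM added these counts were 28, 13, 26 and 7. Without the sarcomere-rich cells, 69 genes were higher over all cells and 58 in low-Epcam cells. Of the 48 named values, that alternative turned the sign of 3. These were Acta2 over all cells (log2 fold −0.14) and, in low-Epcam cells, Ttn (−0.15) and Hspb1 (−0.037). The sarcomere list median in low-Epcam cells turned too (−0.000852), with 10 of its 20 genes below 0, against 1 in the main values. Acta2 (−0.77) and Myl7, not among the named low-Epcam values, also turned there. Leaving out the sarcomere-rich cells took 14 of the 48 named values under 2-fold, and 50 CPM added took 13 of 48. The other alternatives took 0. Over all alternatives 453 named values stayed within their counting interval, 168 moved and 3 turned sign. The posterior share of cells with 2 or more Epcam UMIs was 11.005% with a minimum of 4 UMIs and 11.3% after thinning. Of the E9.5 genes lower in posterior, 84.4% kept their sign at E10.5 in low-Epcam cells, against 56.7% in all cells. The cause of these shifts was not tested. Depth limits the middle library most: its 40 low-Epcam cells held 873074 UMIs, so that 3 counts, the limit a count of 0 allows, stand for 3.44 CPM.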

Other observations

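Genes outside the lists were also apart between posterior and middle low-Epcam cells; they were chosen after their values were seen. Among those higher in posterior, Hlx, a homeobox gene of gut and liver mesenchyme, had 294 counts in posterior and 0 in middle cells. Cxcl13, a chemokine, stood at 58.5 CPM in posterior and 6.87 CPM in middle, Ifitm1, an interferon-induced membrane protein, at 201 and 37.8 CPM, and Map1b, a microtubule-associated protein, at 256 and 85.9 CPM. Phlda2, an imprinted growth regulator, had 469 counts in posterior and 0 in middle cells. Among those lower in posterior were paired-related homeobox genes of mesenchyme, with Prrx1 at 26.1 CPM in posterior and 69.9 CPM in middle and Prrx2 at 173 and 376 CPM. Cdh11, a cadherin of mesenchyme, stood at 41.3 and 92.8 CPM, and Arg1, the enzyme arginase, at 291 and 596 CPM.

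AY036118 and Gm42418, transcripts that overlap ribosomal RNA repeats, were also higher in posterior low-Epcam cells. AY036118 stood at 31.8 CPM in posterior and 2.29 CPM in middle, with a UMI in 61.7% and 5% of cells. Gm42418 stood at 104 CPM in posterior and 32.1 CPM in middle, with a UMI in 89.3% and 45% of cells.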
